A study of Mus musculus with 4 samples.

Results

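Transcripts of the intestinal epithelium were measured in RNA of regulatory T cells that had been sorted from Peyer's patches of mice, which are clusters of lymphoid follicles along the small intestine. The 9 genes described, Reg3b, Reg3g, Lypd8, Fabp1, Alpi, Akp3, Mttp, Krt19 and Cldn3, were found by symbol among the 24061 gene rows of the deposited count table, and all 9 passed the filter on low counts. They had been selected on their levels in these libraries, counts scaled to library size, so those levels are given as a description, and no test is given for them. The sorted cells were CD4-positive, FoxP3-positive and lacked CD62L, a lymph node homing receptor that effector cells lose, and about 40000 of them went into each RNA sample. The groups were 2 libraries labelled flox (mice with both Maf alleles floxed, Maf flox/flox FoxP3-YFP-cre) and 2 labelled wt (mice with intact Maf, Maf+/+ FoxP3-YFP-cre). All mice were 13 weeks old, on a C57BL/6 background at backcross generation N5, were kept free of Helicobacter hepaticus, and had a Cre recombinase and a yellow fluorescent protein expressed from Foxp3. That Cre acts in FoxP3-expressing cells, and the epithelium is not where it is driven. The labels do not say whether animals were pooled or whether libraries of a label came from separate animals, so the spread between libraries may be partly technical.

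The lining of the small intestine is made mainly of absorptive enterocytes, which take up and export nutrients, with goblet, Paneth, enteroendocrine and tuft cells among them. Reg3b and Reg3g encode secreted C-type lectins that bind bacterial cell walls and keep microbes away from the epithelium, and interleukin 22, acting through STAT3, is a well known inducer of both. Fabp1, Alpi, Akp3 and Mttp serve the uptake of fat and the brush border, while Krt19 and Cldn3 belong to the cytoskeleton and the tight junction.

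The data come from libraries with gene totals between 19368745 and 24687897 counts. The targeted gene did not follow the labels. Maf, which encodes the transcription factor c-Maf, had 0.726 CPM (counts scaled to library size) in the library labelled flox 2 and 122 in flox 1, against 1.98 in wt 2 and 149 in wt 1. Both libraries numbered 2 were thus low in Maf and both numbered 1 were high, whatever their label. Libraries are therefore called by their labels, and a direction between flox and wt is a direction between labels. The split by number is described without a test. Markers of the sorted cells were high in every library: a list of 6 regulatory T cell genes summed to 5155 CPM in the library labelled flox 2, 6203 in flox 1, 4655 in wt 2 and 6433 in wt 1. The order of this sum follows its most abundant gene, Ctla4, with 2080 CPM in flox 2 and 3344 in flox 1, against 1627 in wt 2 and 3342 in wt 1. Foxp3, named after its values were seen, had another order, with 104 CPM in flox 2 and 91.0 in flox 1, against 104 in wt 2 and 93.8 in wt 1. The sum therefore does not rank the libraries by their content of regulatory T cells.

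The members lie on 5 chromosomes, and 2 pairs of them are neighbours (coordinates of GENCODE for mm10, the build in the submitters' notes). Reg3b (ENSMUSG00000071356.7) lies on chromosome 6 at 78370657 to 78373466 on the plus strand. Reg3g (ENSMUSG00000030017.2) lies 92.8 kb away at 78466269 to 78468872 on the minus strand. Alpi (chromosome 1, 87098002 to 87101606, minus strand) and Akp3 (87124973 to 87127912, plus strand) are 23.4 kb apart. Fabp1 is on chromosome 6 (71199827 to 71205023), Mttp on chromosome 3 (138089854 to 138144968), Cldn3 on chromosome 5 (134986214 to 134987472), and Lypd8 (58379043 to 58390728) and Krt19 (100140810 to 100148665) on chromosome 11.

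The 150 bases before the start annotated by RefSeq are shown for both neighbouring pairs, because the lectins varied most between libraries and the phosphatases kept no constant ratio. For Reg3b this start lies inside the GENCODE span given above, which begins with an alternative transcript that starts further upstream, and the last bases of the window fall in the first exon of the principal transcript of GENCODE. The sequences are from RefSeq (GRCm38.p6) and run 5′ to 3′ on the gene's strand, and capitals mark matches to the motifs named after them. Reg3b is chr6:78370735-78370884 (plus), Reg3g chr6:78468875-78469024 (minus), Alpi chr1:87101607-87101756 (minus) and Akp3 chr1:87124804-87124953 (plus).
Reg3b: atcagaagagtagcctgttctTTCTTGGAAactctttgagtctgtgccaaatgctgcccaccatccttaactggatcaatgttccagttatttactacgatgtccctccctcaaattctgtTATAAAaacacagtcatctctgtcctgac
Reg3g: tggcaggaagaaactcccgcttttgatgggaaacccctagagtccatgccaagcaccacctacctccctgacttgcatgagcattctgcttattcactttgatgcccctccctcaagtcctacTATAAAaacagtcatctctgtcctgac
Alpi: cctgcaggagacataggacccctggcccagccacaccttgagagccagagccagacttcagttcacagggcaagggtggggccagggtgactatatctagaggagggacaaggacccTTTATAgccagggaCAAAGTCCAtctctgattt
Akp3: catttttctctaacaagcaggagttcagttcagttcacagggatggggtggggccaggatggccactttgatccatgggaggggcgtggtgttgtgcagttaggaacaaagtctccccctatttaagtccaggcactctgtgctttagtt

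Windows of 250 bases before the start were searched on both strands for 4 motifs, and 8 of the 9 members had such a window, Krt19 being the exception. The letters of the TATA box, TATAAA, were present on the gene's strand for Reg3b, Reg3g and Fabp1. For Alpi they were present on the other strand alone and show as TTTATA. On either strand, 12.4% of the 32851 windows of all genes held them. The STAT motif TTCNNNGAA was present for Reg3b alone among the members (7.02% of all windows), 129 to 121 bases before the start. The HNF4 motif CAAAGTCCA, named after a nuclear receptor of the gut and liver epithelium, was present for Alpi alone (0.384% of all windows), at 19 to 11 bases before the start. The GATA motif AGATAA was present for Lypd8 (9.99% of all windows). It lay in the window of a start inside the gene span (58380396 to 58380645), and the Lypd8 window before that span had no match. The windows of Reg3b and Reg3g were identical at 70.0% of 247 aligned bases and ended in the same 20 bases, and those of Alpi and Akp3 were identical at 68.4% of 212. These are matches of letters and do not show binding.

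Reg3b varied most between libraries. It had 110 CPM in the library labelled flox 2 (95% counting interval 106 to 115) and 30.9 in flox 1 (28.8 to 33.2), against 82.0 in wt 2 (78.1 to 86.1) and 1.41 in wt 1 (0.944 to 2.02). The libraries numbered 2, low in Maf, were highest, the library labelled wt 1 stood far below the others, and the labels overlapped. Reg3g had 41.1 CPM in the library labelled flox 2 and 17.2 in flox 1, against 24.5 in wt 2 and 1.22 in wt 1. The order of the libraries was the same for both lectins, and the highest was 78.1 times the lowest for Reg3b and 33.8 times for Reg3g. By label Reg3b averaged 70.5 ± 56.0 CPM in flox and 41.7 ± 57.0 in wt, and Reg3g 29.2 ± 16.9 in flox and 12.9 ± 16.5 in wt (SD, n = 2), so that the difference between labels was within the spread of each. The intervals cover counting error only.

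**Figure D1:**
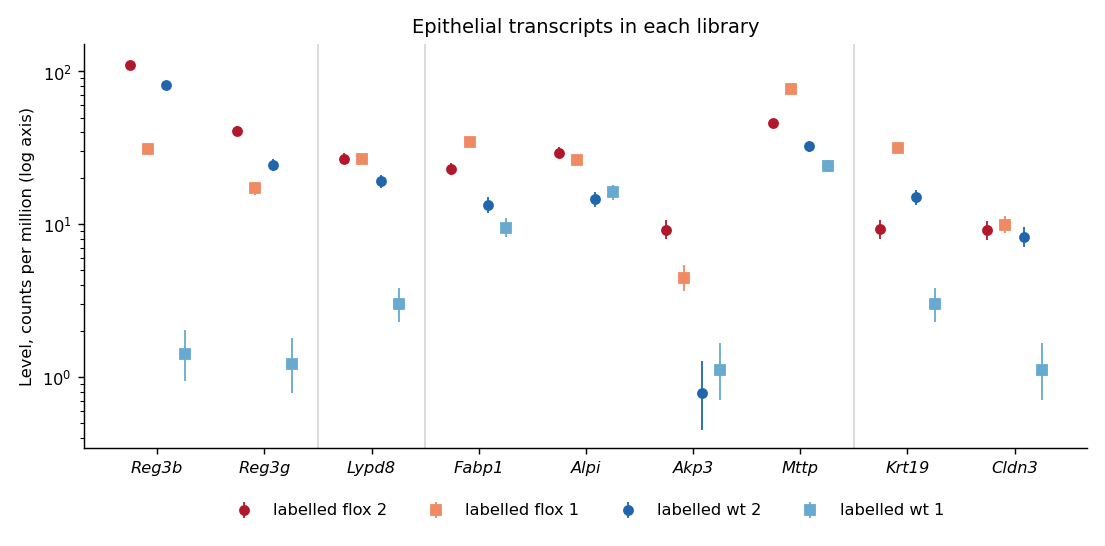
Level of each of the 9 genes in each library in CPM on a log axis, with exact Poisson 95% intervals that cover counting error only; red and orange stand for libraries labelled flox, dark and light blue for those labelled wt, circles for number 2 and squares for number 1. The library labelled wt 1 is lowest for 7 of the 9 genes, with 1.41 CPM of Reg3b against 30.9 to 110 in the others, while Alpi stays between 14.6 and 29.5.

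Lypd8 encodes a protein of the epithelial surface that binds flagellated bacteria. It had 26.9 CPM in the library labelled flox 2 and 26.9 in flox 1, against 19.1 in wt 2 and 3.01 in wt 1. Unlike the lectins it was level between the libraries labelled flox, with a ratio of flox 2 to flox 1 of 1.00 (0.892 to 1.12), and low in wt 1 alone.

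Of the 9 members, the absorptive genes Fabp1, Mttp and Alpi varied least between libraries, while the highest Akp3 level was 11.7 times its lowest. Fabp1, a carrier of fatty acids within the enterocyte, had 23.0 CPM in the library labelled flox 2 and 34.5 in flox 1, against 13.4 in wt 2 and 9.53 in wt 1. Mttp loads lipid onto apolipoprotein B for export and had 45.8 CPM in the library labelled flox 2 and 77.3 in flox 1, against 32.3 in wt 2 and 24.2 in wt 1. Both genes were higher in each library labelled flox than in each labelled wt. Their ratio to each other was similar everywhere, with 1.99 Mttp counts per Fabp1 count in flox 2 (1.78 to 2.23) and 2.24 in flox 1 (2.07 to 2.44), against 2.41 in wt 2 (2.09 to 2.79) and 2.54 in wt 1 (2.15 to 3.01).

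Alpi and Akp3 encode intestinal alkaline phosphatases of the brush border, which dephosphorylate dietary and bacterial products. In mice Akp3 is known as the form of the duodenum. Alpi had 29.5 CPM in the library labelled flox 2 and 26.5 in flox 1, against 14.6 in wt 2 and 16.2 in wt 1, the narrowest range of the members (2.02 times from lowest to highest). Akp3 had 9.24 CPM in the library labelled flox 2 and 4.46 in flox 1, against 0.791 in wt 2 and 1.12 in wt 1. There were 3.19 Alpi counts per Akp3 count in flox 2 (2.71 to 3.78) and 5.93 in flox 1 (4.83 to 7.33), against 18.5 in wt 2 (11.2 to 32.8) and 14.5 in wt 1 (9.52 to 23.2). The pair thus kept no constant ratio, and within each label its number 2 and number 1 libraries were closer to each other than to the other label. Their transcripts were identical at 82.6% of 1648 aligned bases and shared 35 of 2288 windows of 50 bases. A small part of the reads could therefore match both genes. For Reg3b and Reg3g the identity was 74.4% and no window of 50 bases was shared. The read length is not given in the sources used here.

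Krt19, a keratin filament protein, had 9.33 CPM in the library labelled flox 2 and 31.7 in flox 1, against 15.1 in wt 2 and 3.01 in wt 1. Cldn3, a claudin that seals tight junctions, had 9.19 CPM in the library labelled flox 2 and 9.96 in flox 1, against 8.31 in wt 2 and 1.12 in wt 1. Both were lowest in wt 1 and highest in flox 1. Krt19 was 0.294 times as high in flox 2 as in flox 1 (0.25 to 0.345), the opposite direction to Reg3b (3.56 times, 3.28 to 3.87). In the libraries labelled wt both genes were higher in number 2, by 5.0 times for Krt19 (3.80 to 6.68) and 58.2 times for Reg3b (40.4 to 87.1).

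Per kilobase of the principal transcript, which allows levels of different genes to be compared, Reg3b was the most abundant member in flox 2 (141 CPM per kb) and wt 2 (105), and Fabp1 in flox 1 (62.4) and wt 1 (17.2). Averaged over the 4 libraries the order of this level was Reg3b (71.7 CPM per kb), Fabp1 (36.4), Reg3g (27.3), Lypd8 (15.6), Mttp (11.3), Krt19 (9.38), Alpi (9.29), Cldn3 (5.67) and Akp3 (2.32). Krt19 and Alpi, neighbours in that order, changed places between libraries: Krt19 was above Alpi in flox 1 and wt 2 and below it in flox 2 and wt 1. Other places changed too. Reg3g was above Fabp1 in flox 2 and wt 2 and below it in flox 1 and wt 1, where it was the 7th of the 9, and Krt19 was above Mttp in flox 1 and wt 2.

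Summed over the 9 genes, the level was 304 CPM in the library labelled flox 2 and 259 in flox 1, against 210 in wt 2 and 60.9 in wt 1. By label this was 282 ± 31.6 CPM in flox and 136 ± 106 in wt (SD, n = 2), a ratio of 2.08 (1.06 on the log2 scale). The difference between the label means was larger than the SD in either label, and it rests largely on wt 1: on the log2 scale the ratio was 0.42 without wt 1 and 2.21 without wt 2. Among the single genes the fitted log2 fold change between labels, flox over wt, ran from 0.76 (SE 1.82) for Reg3b to 2.83 (SE 0.54) for Akp3. This SE was derived from the F statistic of the quasi-likelihood fit, and it gives no test of members chosen on these values. For Reg3b the sign turned when flox 2 (-0.43) or wt 1 (-0.22) was left out, and without wt 2 its value was 5.64. Both libraries labelled flox lay above both labelled wt for 6 of the 9 genes (Lypd8, Fabp1, Alpi, Akp3, Mttp and Cldn3), where 13.2% of the 13022 genes tested did. Because the choice of the members used this contrast, nothing is read from that count. Both libraries numbered 2 lay above both numbered 1 for 2 of the 9, Reg3b and Reg3g, a share near the 22.7% of all genes tested. In bulk RNA, fewer cells of a type and less RNA per cell cannot be told apart.

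The make-up of this sum differed between libraries. The lectins Reg3b and Reg3g held 49.7% of the counts of the 9 genes in the library labelled flox 2 (exact binomial 95% interval 48.5 to 51.0) and 18.6% in flox 1 (17.6 to 19.5), against 50.7% in wt 2 (49.2 to 52.2) and 4.31% in wt 1 (3.26 to 5.59). The 4 absorptive genes held 35.3% in flox 2 and 55.0% in flox 1, against 29.1% in wt 2 and 84.0% in wt 1. Krt19 and Cldn3 together held 6.09% in flox 2 and 16.1% in flox 1, against 11.1% in wt 2 and 6.79% in wt 1. The shares of the libraries numbered 2 were alike for the lectins and those numbered 1 were not.

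**Figure D2:**
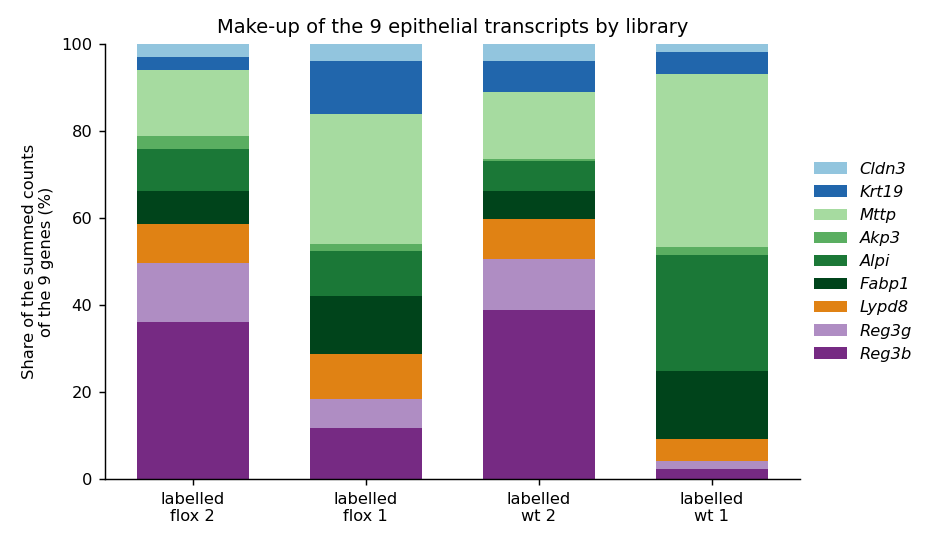
Share of each gene in the summed counts of the 9 genes, in percent, with a bar for each library. Purple (Reg3b and Reg3g) fills 49.7% of the bar labelled flox 2 and 50.7% of wt 2 but 18.6% of flox 1 and 4.31% of wt 1, where green (Fabp1, Alpi, Akp3 and Mttp) fills 84.0%.

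Whether the classes kept a constant ratio to each other was examined within each library. Lectin counts per absorptive count were 1.41 in the library labelled flox 2 (1.33 to 1.49) and 0.337 in flox 1 (0.315 to 0.360), against 1.74 in wt 2 (1.62 to 1.87) and 0.0514 in wt 1 (0.0383 to 0.0676). Structural counts per absorptive count were 0.172 in flox 2 (0.154 to 0.192) and 0.292 in flox 1 (0.272 to 0.313), against 0.382 in wt 2 (0.343 to 0.426) and 0.0809 in wt 1 (0.0641 to 0.101). No pair of libraries had overlapping intervals for either ratio, so that the 3 classes differed in ratio between libraries by more than counting error. Within the lectins, Reg3b counts per Reg3g count were 2.68 in flox 2 (2.48 to 2.90) and 1.80 in flox 1 (1.59 to 2.03), against 3.34 in wt 2 (3.02 to 3.71) and 1.16 in wt 1 (0.656 to 2.07). Krt19 counts per Cldn3 count were 1.0 in flox 2 (0.83 to 1.2) and 3.2 in flox 1 (2.8 to 3.7), against 1.8 in wt 2 (1.5 to 2.2) and 2.7 in wt 1 (1.6 to 4.6). These intervals leave out the variation between samples, which could not be estimated for single libraries. Ratios inside a class thus changed between libraries too, as for Alpi and Akp3, while that of Mttp to Fabp1 changed little. The differences are therefore not those of whole classes alone.

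The members were then set against other absorptive genes, a list of 26 that held none of them. This list summed to 535 CPM in the library labelled flox 2 and 901 in flox 1, against 766 in wt 2 and 495 in wt 1. Per 100 counts of the list there were 20.6 of Reg3b in flox 2 (19.6 to 21.5) and 3.43 in flox 1 (3.19 to 3.69), against 10.7 in wt 2 (10.2 to 11.3) and 0.285 in wt 1 (0.191 to 0.409). The order of the libraries for Reg3b was thus the same per absorptive count as per library. Mttp gave 8.55 in flox 2 and 8.59 in flox 1, against 4.22 in wt 2 and 4.89 in wt 1, and Fabp1 gave 4.29 and 3.83 in flox 2 and flox 1, against 1.75 and 1.92 in wt 2 and wt 1. For Mttp and Fabp1 the scaled level was close within a label and separate between labels. The choice of the members used this contrast, so nothing is read from that separation. In CPM, both libraries labelled flox lay above both labelled wt for 4 of the 26 list genes, where 13.2% of all genes tested did. Alpi gave 5.51 in flox 2 and 2.94 in flox 1, against 1.91 in wt 2 and 3.28 in wt 1, where the labels overlapped.

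The epithelial label was checked against genes that are no members. Epcam, the adhesion molecule that marks epithelial cells, had 89.2 CPM in the library labelled flox 2 and 91.9 in flox 1, against 140 in wt 2 and 75.8 in wt 1. Apoa1, an apolipoprotein of enterocytes, had 105 CPM in flox 2 and 115 in flox 1, against 128 in wt 2 and 91.8 in wt 1. Transcripts typical of epithelium were thus present in every library, wt 1 included. Apoa4, the most abundant gene of the absorptive list, had 79.0 CPM in flox 2 and 146 in flox 1, against 110 in wt 2 and 130 in wt 1, where flox 2 was lowest. Krt8 had 50.6 CPM in flox 2 and 89.8 in flox 1, against 81.7 in wt 2 and 27.3 in wt 1. Krt20 had 31.8 CPM in flox 2 and 44.4 in flox 1, against 52.9 in wt 2 and 25.9 in wt 1. Tjp3, a tight junction scaffold gene, had 37.5 CPM in flox 2 and 56.9 in flox 1, against 37.0 in wt 2 and 56.5 in wt 1. Epcam, Apoa1, Krt8 and Krt20 were thus lowest in wt 1, while Apoa4 and Tjp3 were not. The secretory list of 14 goblet, enteroendocrine and tuft cell genes summed to 5.95 CPM in flox 2 and 23.2 in flox 1, against 20.6 in wt 2 and 2.53 in wt 1.

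In 6 epithelial lists holding 89 genes other than the members, 67 were tested, and 0 passed edgeR's quasi-likelihood test for labelled flox over labelled wt (adjusted p under 0.05), where 0.00768% of all genes tested passed. An unadjusted p under 0.05 was found for 5 of the 67, against 1.98% of all genes. DESeq2 called 0 of the 67, and 0.0922% of all genes. The fitted fold change was above 0 for 45 of the 67, with a median log2 fold change of 0.31 beside 0.0011 over all genes. That median was -0.12 without flox 1, 0.65 without flox 2, 0.025 without wt 1 and 1.19 without wt 2. The library labelled wt 1 was lowest for 39 of the 67 (58.2%), against 24.5% of all genes tested.

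By list, the absorptive one had 26 genes tested and 19 with a fold change above 0, the antimicrobial one 6 of 8, the structural one 14 of 21, the secretory one 3 of 6, the stem cell one 1 of 3 and the list of follicle-associated epithelium and M cells 2 of 3. None of these genes passed edgeR's quasi-likelihood test. In the antimicrobial list, Pigr, which carries immunoglobulin A across the epithelium, had 54.6 CPM in flox 2 and 79.7 in flox 1, against 65.9 in wt 2 and 20.8 in wt 1. Reg1, a lectin of the same family, had 16.8 CPM in flox 2 and 17.3 in flox 1, against 2.82 in wt 2 and 7.93 in wt 1, an order unlike that of Reg3b and Reg3g. Lyz1, the lysozyme of Paneth cells, had 16.2 CPM in flox 2 and 25.4 in flox 1, against 17.2 in wt 2 and 1.56 in wt 1. It is a close copy of the macrophage lysozyme Lyz2, and the assignment of reads to either gene is uncertain. Defa17, Defa24, Ang4, Mmp7 and Pla2g2a of the same list, named after their values were seen, had at most 3 counts in any library. Lyz1 therefore does not show Paneth cell RNA by itself. Ccl20, the chemokine of the follicle-associated epithelium, is also made by type 17 T cells, and it followed the number like Maf, with 5.32 CPM in flox 2 and 85.4 in flox 1, against 5.93 in wt 2 and 86.4 in wt 1.

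Between the libraries labelled flox, the lectins and most epithelial list genes differed in opposite directions. Among the 67 tested list genes, 13 were higher in flox 2 than in flox 1, with a median log2 ratio of -0.71, and 55 were higher in wt 2 than in wt 1, with a median of 0.88. On this scale of log2(CPM + 0.5), Reg3b was 1.82 in flox and 5.43 in wt, and Reg3g was 1.23 in flox and 3.87 in wt. Of the 67 genes, 1 reached the value of Reg3b in flox and 0 in wt, and 3 reached that of Reg3g in flox and 2 in wt. Over all 13022 genes the median ratio was -0.0013 in flox and 0.012 in wt. Each ratio compares 2 libraries and has no replicate, so no test was made.

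**Figure D3:**
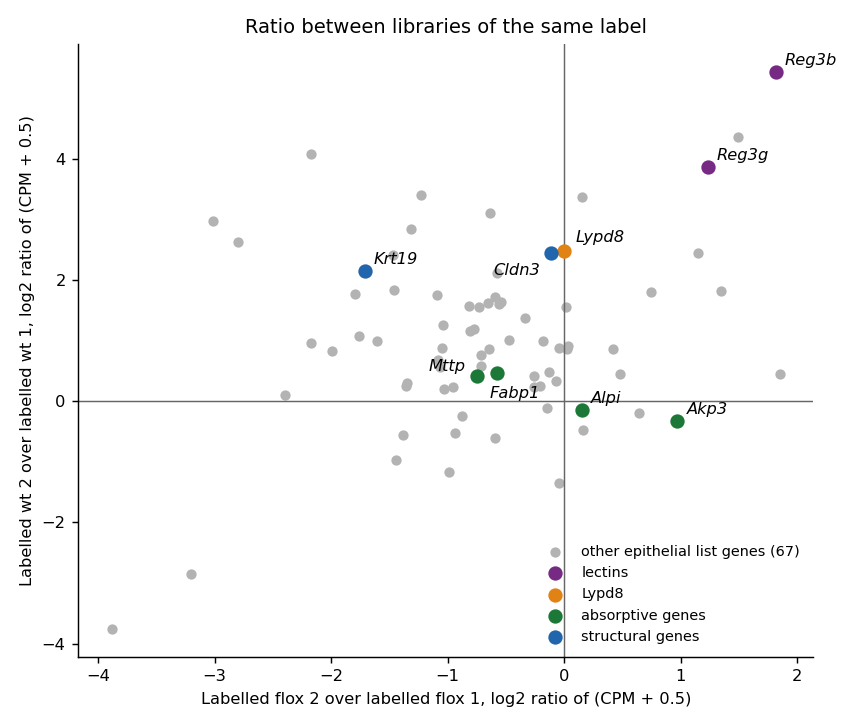
Log2 ratio of (CPM + 0.5) of the library numbered 2, low in Maf, over that numbered 1, high in Maf, within the label flox (horizontal) and within the label wt (vertical), with a point for each gene. Reg3b (1.82 and 5.43) and Reg3g (1.23 and 3.87) lie in the upper right and the bulk of the 67 other epithelial genes in the upper left. Fabp1 (-0.58 and 0.47) and Mttp (-0.75 and 0.41) are also in the upper left, and Alpi (0.15 and -0.15) is near the middle.

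Genes of the interleukin 22 and STAT3 axis, the known route to Reg3 induction, were looked at as a list of 12. Of these, 11 were tested and 0 passed edgeR's quasi-likelihood test, with 2 at an unadjusted p under 0.05 and 0 by DESeq2; 8 had a fold change above 0 and the median log2 fold change was 0.096. Stat3, Socs3, Il17ra and Il10rb, the most abundant, are expressed by T cells themselves. Stat3 had 655 CPM in flox 2 and 672 in flox 1, against 619 in wt 2 and 662 in wt 1. The cytokine Il22, named after its values were seen, had 3.0 CPM in flox 2 and 5.53 in flox 1, against 0.643 in wt 2 and 0.681 in wt 1, an order unlike that of the lectins. Its soluble antagonist Il22ra2, also named after its values were seen, had 6.38 CPM in flox 2 and 16.8 in flox 1, against 5.88 in wt 2 and 0.0972 in wt 1. The 2 genes at an unadjusted p under 0.05 were Il22 and Il22ra1, the latter also named after its values were seen. These are levels in the sorted samples, and the interleukin 22 that reached the epithelium was not measured.

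Markers of other cells that the sort should have removed were also present, and some moved with the epithelial genes. The myeloid list of 14 genes summed to 59.6 CPM in flox 2 and 106 in flox 1, against 66.5 in wt 2 and 15.6 in wt 1. In it Lyz2 had 42.9 CPM in flox 2 and 66.9 in flox 1, against 41.2 in wt 2 and 7.97 in wt 1, and Csf1r, the receptor that maintains macrophages, was at 0 in wt 1. Not all of the list followed this order. Of its 10 genes tested, 6 were lowest in wt 1 (60%, against 24.5% of all genes tested) and 1 was highest there. The B cell list, of which 11 of 12 genes were in the table, summed to 54.2 CPM in flox 2 and 103 in flox 1, against 62.5 in wt 2 and 57.3 in wt 1. The stromal list reached at most 5.90 CPM, the list of pancreatic acinar genes 2.77 and the list of red cell genes 3.81, with haemoglobin genes at 0. The part of these cells in the differences between libraries was not tested. None of the 28 genes tested in these 5 lists, nor of the 6 of the regulatory T cell list, passed edgeR's quasi-likelihood test. DESeq2 called 0 of them, and 0 reached an unadjusted p under 0.05.

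**Figure D4:**
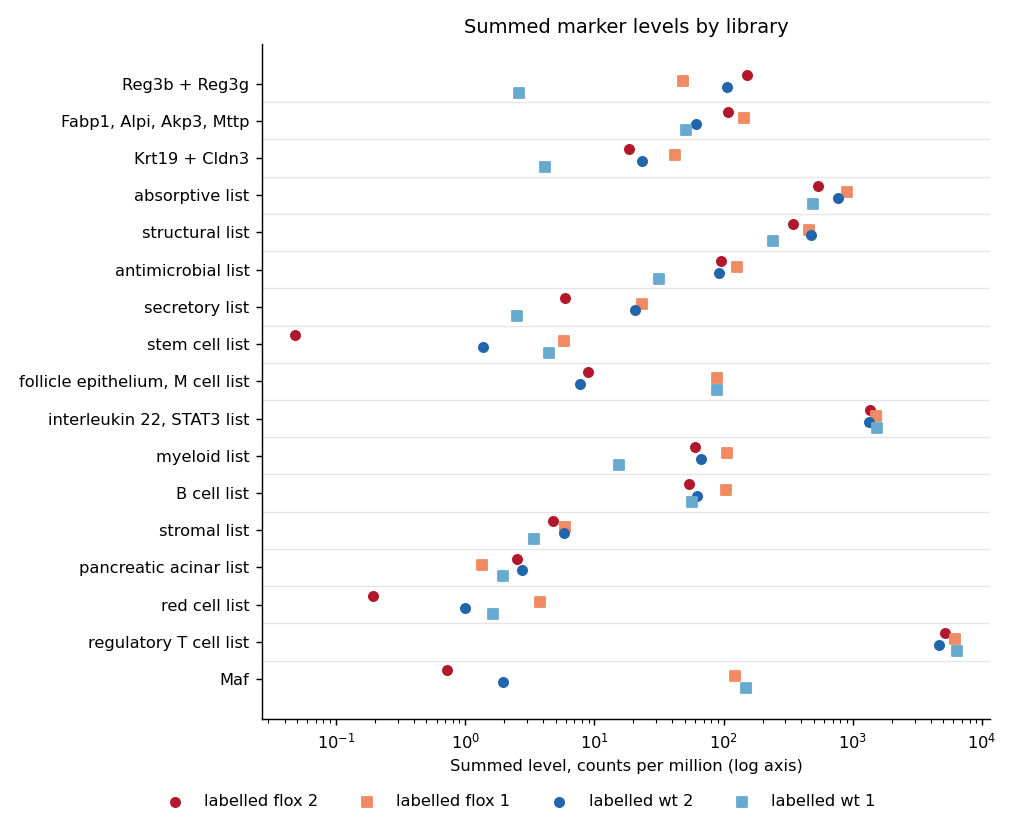
Summed level in CPM on a log axis for the 3 classes of members (Lypd8 is left out), for the 13 marker lists and for Maf, in each library. The library labelled wt 1 is lowest for 9 of the 17 sums, among them all 3 classes of members, and highest for 4, the follicle epithelium and M cell list, the interleukin 22 and STAT3 list, the regulatory T cell list (6433) and Maf (149). The follicle epithelium and M cell sum in wt 1 (88.9) is mostly Ccl20 (86.4), which type 17 T cells also make. Of the 6 genes of the regulatory T cell list, 1 was highest in wt 1.

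The genes most like each class over the 4 libraries were listed by the root mean square difference of their centred log2(CPM + 0.5) profiles, among 9378 genes with a mean of at least 5 CPM. For the absorptive members these were Reep6 (difference 0.12), Maoa (0.13), Ephx2 (0.13), Epb4.1l3 (0.18) and Ckmt1 (0.18). For Krt19 and Cldn3 they were Lyz2 (0.19), Cds1 (0.27), Ugt2b34 (0.29), Cfb (0.30) and Gucy2c (0.30). For the lectins Apol10a (0.98), Nkg7 (1.07), Lyz1 (1.09), Il22ra2 (1.21) and Cd7 (1.23) were the closest. The profiles were not scaled to a common range, and this difference can grow with the range of a profile. The highest library was 57.6 times the lowest for the lectin sum, 2.79 times for the absorptive and 10.1 times for the structural sum. The larger differences of the lectins therefore do not show a more singular profile. Nkg7, a granule protein of cytotoxic lymphocytes, had 118 CPM in flox 2 and 31.0 in flox 1, against 101 in wt 2 and 12.7 in wt 1. With 4 libraries such likeness is a description of the profiles alone.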

How the data were processed

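The authors deposited raw counts by gene symbol for the 4 libraries, and a filtered table of normalized signal values (10618 rows). TopHat2 2.1.1, HTSeq 0.6.1, edgeR 3.14 and build mm10 are named in the submitters' processing notes. Settings, annotation and strand use: not given in the sources used here. In the deposited counts were 24061 gene rows and 5 counter summary rows (66.6% to 67.2% of each column), which were left out. The signal values were used for 1 alternative.

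Samples were grouped by title. The test was edgeR 4.0.16 in R 4.3.3 (filterByExpr, 13022 genes; TMM; glmQLFit, robust; glmQLFTest; Benjamini-Hochberg over all genes; threshold 0.05), labelled flox over labelled wt. The biological coefficient of variation was 0.273. CPM used TMM library sizes, and 3 counts equal 0.123 to 0.148 CPM. Ratios of counts have exact binomial 95% intervals. Scripts were tested on simulated data. Alternatives were DESeq2 1.42.0, RLE or no scaling, no filter, a replicate block, and each library left out in turn. A permutation test of 2 against 2 cannot go below p = 0.333, so none was run.

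The members and lists were chosen with earlier results of these data known. The genes named were the members, Maf, up to 4 of each list by highest mean, and the 5 most like each class, with others marked as named after their values were seen. Of 157 list genes, Ighm alone was not matched. Transcript lengths are from GENCODE M21.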

Additional observations from a re-analysis of the deposited data

How the results depend on the processing

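Over all genes, 1 passed edgeR's quasi-likelihood test, and 1 did under RLE scaling, without scaling factors and with the replicate block, but 2 passed without the filter on low counts, 12 by DESeq2 and 0 without any 1 library. Of the other epithelial list genes 0 passed under each of these settings. Their median log2 fold change was 0.31 and lay between 0.28 and 0.39 under the other settings, but between -0.12 and 1.19 with a library left out. For the summed 9 genes the log2 ratio was 1.06, 1.06 under RLE, 1.00 without scaling factors, 1.06 from the deposited normalized values (chosen after seeing the data), and 0.42 to 2.21 with a library left out. The lone library of a label is then assumed to vary like the other label. The log2 fold changes of 8 members kept their sign in every setting, and that of Reg3b turned to -0.43 without flox 2 and -0.22 without wt 1. Without wt 2 it was 5.64 for Reg3b and 4.58 for Reg3g. The labels do not say that libraries of the same number share an animal or day; their deviations from the label means correlated at 0.33 over genes, and with 2 pairs this cannot establish pairing. With the block, the count of genes passing stayed 1. Depth limits Akp3 most, with 16 counts in wt 2 and 23 in wt 1.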

Other observations

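Some epithelial genes were high in a single library; those named here were picked after their values were seen. Fabp6 and Slc10a2, which bind and take up bile acids in the distal small intestine, had 0.484 and 0.0484 CPM in the library labelled flox 2 and 3.93 and 0.860 in flox 1, against 24.4 and 4.45 in wt 2 and 0.972 and 0.194 in wt 1. The metalloprotease gene Mep1a had 2.42 CPM in flox 2 and 2.13 in flox 1, against 9.69 in wt 2 and 0.486 in wt 1. All 3 were thus highest in wt 2. Akp3, the phosphatase of the duodenum, had 0.791 CPM there, within counting error of wt 1 (ratio of wt 2 to wt 1 0.707, 0.349 to 1.40). Cck, a hormone of enteroendocrine cells of the upper small intestine, had 0.0484 CPM in flox 2 and 8.23 in flox 1, against 0.297 in wt 2 and 0 in wt 1. Fcgbp, a mucus protein of goblet cells, had 1.60 CPM in flox 2 and 0.246 in flox 1, against 9.79 in wt 2 and 0 in wt 1. Other goblet cell genes had another order. Muc2, Zg16 and Tff3 were highest in flox 2, at 1.79, 4.11 and 0.822 CPM, against 0.0494, 1.04 and 0.643 in wt 2. Agr2 was highest in flox 1, at 2.83 CPM, against 0.0494 in wt 2.

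Both libraries numbered 2 lay above both numbered 1 for 9 of the 67 tested epithelial list genes (13.4%) and below both for 8, against 22.7% and 22.5% of all genes tested. Among the 9, picked for this order after their values were seen, the dual oxidase Duox2, which epithelial cells use to release hydrogen peroxide toward microbes, had 0.967 CPM in flox 2 and 0.164 in flox 1, against 2.47 in wt 2 and 0.0486 in wt 1. Its maturation factor Duoxa2 had 0.774 CPM in flox 2 and 0 in flox 1, against 1.43 in wt 2 and 0.0486 in wt 1. Both genes had at most 50 counts in a library. Neither passed edgeR's quasi-likelihood test by label, and the split by number was not tested.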
